A study of Homo sapiens with 6 samples.

Results

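Promoters of cytoplasmic ribosomal protein genes were examined in assay for transposase-accessible chromatin using sequencing (ATAC-seq) of neuroblastoma cells. The genes were taken by symbol: protein-coding genes of the GENCODE annotation of hg38 whose symbol is RPL or RPS followed by a digit, or is RPSA, RPLP0, RPLP1 or RPLP2, without the RPS6K kinases and without chromosomes X and Y. This gave 84 genes of 19111 autosomal protein-coding genes. Of the 84, 73 are single genes of ribosomal proteins, 8 are paralogs (RPL22L1, RPL39L, RPL26L1, RPL7L1, RPL10L, RPL36AL, RPS27L and RPL3L), 2 are read-through genes that share a start region with a ribosomal protein gene (RPS10-NUDT3 and RPL17-C18orf32), and 1 is RPS19BP1, whose product is a binding partner of RPS19. The symbol rule leaves out genes of ribosomal proteins with other names, such as FAU and RACK1.

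SK-N-AS is an established neuroblastoma cell line. Naïve cells were grown out of vehicle-treated SK-N-AS xenografts, and the R1 and R2 cells were grown out of xenografts that had become resistant to indisulam, a drug that causes degradation of the splicing factor RBM39, and were harvested after relapsing again under repeated treatment. All cells were expanded from adherent tumor cells in culture, and the labels give no drug treatment of the cultures. Each of the 3 cell types has 2 libraries of 100000 cells, and since nothing states that these are separate cultures, p-values measure only the spread between libraries, which may be technical.

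Cytoplasmic ribosomes consist of a small subunit, whose proteins carry the prefix RPS, and a large subunit, whose proteins carry RPL or RPLP. Their genes are scattered over the genome, are transcribed in all dividing cells and are known for a start site inside a run of pyrimidines. The run becomes the 5′ terminal oligopyrimidine (TOP) motif of the mRNA, through which translation responds to mTOR signalling. Promoters in use are free of nucleosomes, which the Tn5 transposase of ATAC-seq reads as open chromatin.

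The start sequences show the feature that the genes share and that the symbol rule did not use. RefSeq promoters of GRCh38.p14 were matched by symbol for 65 of the 84 genes, and in 61 of them the RefSeq start was the start of the canonical transcript. A pyrimidine tract was defined as a run of at least 8 C or T on the gene's strand that holds a C followed by TTT, TCT or TTC and lies at least partly within 25 bp of the start. It was present in 55 of 65 promoters (84.6%) and in 2532 of 14621 autosomal protein-coding promoters (17.3%). With a minimum run of 10 bases, the shares were 75.4% and 9.35%. Each sequence below holds 50 bases before the RefSeq start followed by 30 bases from the start on, 5′ to 3′ on the gene's strand, with tracts in capitals. The 4 promoters with the highest mean peak rank are shown first, because they are the most open of the set.
RPLP0: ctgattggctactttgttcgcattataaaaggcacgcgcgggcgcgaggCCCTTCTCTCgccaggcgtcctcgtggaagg
RPL27: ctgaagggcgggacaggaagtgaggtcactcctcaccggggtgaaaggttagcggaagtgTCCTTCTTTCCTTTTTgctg
RPL36AL: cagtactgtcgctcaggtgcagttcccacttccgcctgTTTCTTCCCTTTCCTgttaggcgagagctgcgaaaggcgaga
RPL35: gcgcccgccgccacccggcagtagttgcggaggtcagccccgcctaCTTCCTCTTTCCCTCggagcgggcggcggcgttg
Their positions on GRCh38.p14 are RPLP0 chr12:120201082-120201161 (minus strand), RPL27 chr17:42998369-42998448 (plus strand), RPL36AL chr14:49620597-49620676 (minus strand) and RPL35 chr9:124861928-124862007 (minus strand). In RPLP0, the scaffold of the ribosomal stalk, a tract of 10 bases began 1 base before the start, and in RPL27 a tract of 16 bases began at base 11 of the transcript. RPL36AL, a paralog of the X-linked RPL36A, and RPL35 had tracts of 15 bases across the start.

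Of the promoters with a RefSeq entry, the 4 with the lowest mean rank over the libraries with a peak are shown for contrast.
RPL32: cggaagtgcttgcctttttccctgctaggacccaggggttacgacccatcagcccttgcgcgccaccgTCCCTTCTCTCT
RPL35A: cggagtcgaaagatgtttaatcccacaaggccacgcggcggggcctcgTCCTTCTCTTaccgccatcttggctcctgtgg
RPL7L1: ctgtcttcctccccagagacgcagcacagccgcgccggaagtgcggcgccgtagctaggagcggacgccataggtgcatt
RPL37A: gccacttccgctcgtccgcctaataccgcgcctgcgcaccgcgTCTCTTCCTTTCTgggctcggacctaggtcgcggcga
Their positions are RPL32 chr3:12841536-12841615 (minus strand), RPL35A chr3:197950140-197950219 (plus strand), RPL7L1 chr6:42879566-42879645 (plus strand) and RPL37A chr2:216498794-216498873 (plus strand). RPL35A and RPL37A had tracts across the start, in RPL32 a tract of 17 bases began at base 19 of the transcript and ran past the printed end, and RPL7L1, a paralog of RPL7, had none. Among promoters with a peak in every library, the median level given below as a mean promoter percentile was 52.2 in the 36 genes with a tract and 48.3 in the 7 without one, and the ranges overlapped (26.5 to 85.5 and 36.4 to 77.1).

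The tracts of genes with well-known roles are shown next: RPL11, which binds 5S rRNA and MDM2, RPS19, the gene most often mutated in Diamond-Blackfan anemia, RPS6, the S6 kinase substrate, the stalk proteins RPLP1 and RPLP2, RPSA, named for laminin binding, and the paralogs RPL22 and RPL22L1.
RPL11: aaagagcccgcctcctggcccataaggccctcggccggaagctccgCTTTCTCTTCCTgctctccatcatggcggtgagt
RPS19: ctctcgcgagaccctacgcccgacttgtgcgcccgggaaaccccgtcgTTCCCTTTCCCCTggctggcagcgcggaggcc
RPS6: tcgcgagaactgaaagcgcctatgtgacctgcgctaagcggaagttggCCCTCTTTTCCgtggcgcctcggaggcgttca
RPLP1: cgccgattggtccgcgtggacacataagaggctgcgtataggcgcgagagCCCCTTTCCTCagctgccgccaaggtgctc
RPLP2: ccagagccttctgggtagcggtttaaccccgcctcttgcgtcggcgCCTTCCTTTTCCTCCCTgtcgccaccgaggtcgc
RPSA: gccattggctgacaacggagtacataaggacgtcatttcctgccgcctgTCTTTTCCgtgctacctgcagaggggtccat
RPL22: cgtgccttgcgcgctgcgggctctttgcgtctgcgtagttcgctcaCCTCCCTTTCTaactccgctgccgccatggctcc
RPL22L1: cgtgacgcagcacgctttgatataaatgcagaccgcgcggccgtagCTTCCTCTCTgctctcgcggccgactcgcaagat
Their positions are RPL11 chr1:23691756-23691835 (plus strand), RPS19 chr19:41860205-41860284 (plus strand), RPS6 chr9:19380207-19380286 (minus strand), RPLP1 chr15:69452768-69452847 (plus strand), RPLP2 chr11:809917-809996 (plus strand), RPSA chr3:39406670-39406749 (plus strand), RPL22 chr1:6199566-6199645 (minus strand) and RPL22L1 chr3:170870166-170870245 (minus strand). In these 8 promoters the tract was 8 to 17 bases long and began between 4 bases before the start and the start itself. RPL5, which works with RPL11, had no entry in the promoter table, as had 18 other members.

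Other short sequences were searched on both strands from 250 bases before to 50 after the start. The ETS family letters CCGGAA occurred in 36 of 65 ribosomal protein promoters (55.4%) and in 24.0% of all promoters. The letters TCGCGAGA occurred in 11 of 65 (16.9%) and in 1.87% of all, and the YY1 letters AAGATGGC in 7 of 65 (10.8%) and in 4.16%. The TATA box letters TATAAA were found in 8 of 65 (12.3%) and in 9.47% of all, and the CRE letters TGACGTCA in 3 of 65 (4.62%) and in 2.82%. Lower shares than in all promoters were found for the SP family letters GGGCGG (53.8% and 62.2%), the NF-Y letters CCAAT (33.8% and 36.3%) and the E-box CACGTG (6.15% and 8.77%). The 8 sequences do not contain one another, and each share is a description of letters in this window. The pyrimidine tract, the ETS letters and TCGCGAGA thus had the widest gaps to all promoters, as the bars of promoter features show.

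**Figure D1:**
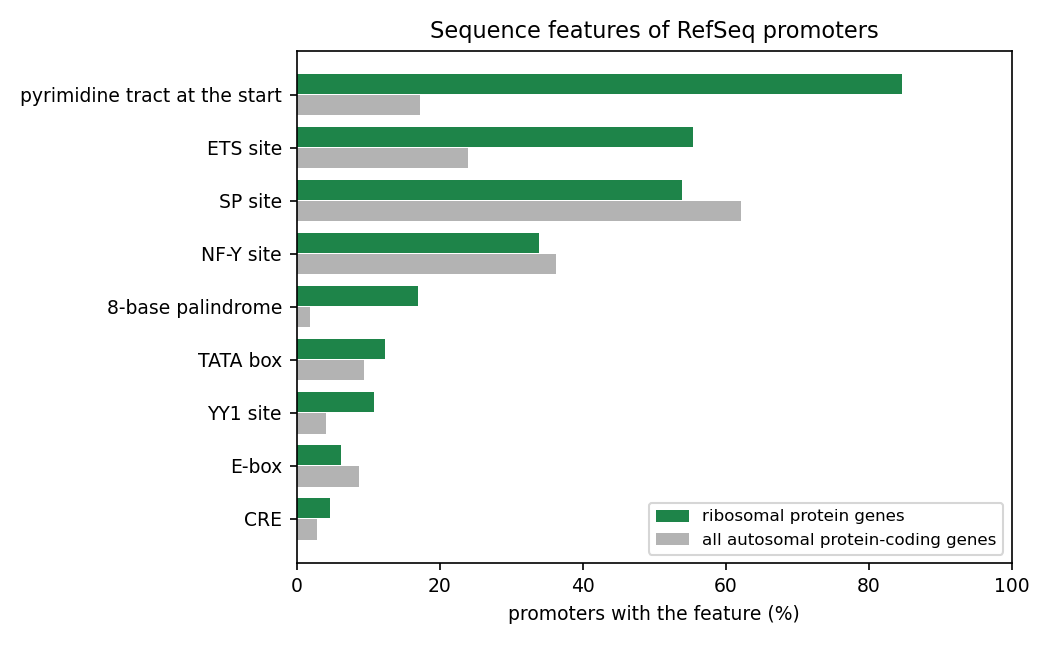
Percent of RefSeq promoters (x axis) that hold each sequence feature (y axis), for 65 ribosomal protein genes (green) and 14621 autosomal protein-coding genes (grey). The pyrimidine tract stood at 84.6% against 17.3%, while the SP and NF-Y sites were less frequent than in all promoters. The bar labelled 8-base palindrome is TCGCGAGA, which is not its own reverse complement.

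A promoter was counted as open in a library if a peak of its list overlapped the 1000 bp on either side of the canonical start. The peak with the lowest p-value gave the value. For 14 of the 84 genes, a gene outside the set starts on the opposite strand within 1000 bp, so that their peak may belong to either gene. In R1 library 1, 4 of the 84 genes shared their peak with another of them, as RPS10 did with RPS10-NUDT3. In bulk libraries, fewer cells with an open promoter and a less open promoter in each cell cannot be told apart. Of the 84 genes, 79 and 74 had a peak in the naïve libraries 1 and 2, 82 in each of the R1 libraries, and 70 in each of the R2 libraries. As shares these were 94.0%, 88.1%, 97.6%, 97.6%, 83.3% and 83.3%, beside 73.3%, 69.7%, 86.2%, 84.5%, 62.8% and 63.8% of all autosomal protein-coding genes. In each library the ribosomal protein genes were thus more often open than the average gene, and both shares were highest in R1 and lowest in R2. The order of the cell types was that of depth: in tags per position, the lists gave background rates of 2.29 and 1.35 for naïve cells, 7.94 and 5.43 for R1 and 0.85 and 0.899 for R2, and the lowest pileup called as a peak was 9, 7, 18, 14, 6 and 6 tags.

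A peak in all 6 libraries was found for 61 of the 84 genes (72.6%) and for 10765 of all genes (56.3%). This share was not high beside those of other housekeeping lists. It was 80.8% for mitochondrial ribosomal proteins, 84.4% for proteasome subunits, 86.4% for ribosome biogenesis factors and 72.2% for translation factors with TOP mRNAs. Among single genes, 24 of 30 small-subunit genes (80.0%) and 29 of 43 large-subunit genes (67.4%) had one. A peak in 5 libraries was found for 10 genes, in 4 for 7, in 3 for 4, in 1 for 1 and in none for 1. The 23 genes without a peak in at least 1 library were RPS24, RPS7, RPL17, RPL17-C18orf32, RPL24, RPL4, RPL26, RPL29, RPL27A, RPL14, RPS23, RPL19, RPL41, RPL9, RPS6, RPS25, RPL21, RPL23, RPS3, RPL7L1, RPL35A, RPL32 and RPL10L. All of these but RPL32 and RPL10L had a peak in both R1 libraries, with 33 to 129 tags in R1 library 1, whereas the 61 genes with a peak throughout had 63 to 250 tags there, so that the ranges overlapped. Apart from RPL32 and RPL10L, the missing calls thus fell in the shallower naïve and R2 libraries. A peak was found in R2 libraries 1 and 2 for 9 genes each of these 22 with any peak, with 10 to 15 tags.

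RPL10L, a testis-expressed paralog, was the gene with no promoter peak in any library; its nearest peak was between 21155 and 790502 bp from the start. RPL32, which encodes a large-subunit protein, had a peak in naïve library 2 only, with 12 tags. In the R1 libraries, the deepest, the nearest peaks to its start lay 7521 and 15233 bp away. RPL21, on chromosome 13, had 15 tags in naïve library 1, 51 and 34 tags in R1 and no peak in naïve library 2 or in R2. RPS6 had 16 tags in naïve library 1, 67 in each R1 library, 10 in R2 library 1 and no peak in the remaining libraries. RPL24 had 22 and 13 tags in the naïve and 74 and 49 in the R1 libraries, with no peak in R2. A missing peak in R2 was at this depth not distinguishable from a low level.

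The height of an open promoter was described by its percentile rank by p-value within the list of its library, where 100 is the highest peak. The median over ribosomal protein genes with a peak was 92.1 and 88.7 in the naïve, 97.1 and 96.4 in the R1 and 78.9 and 82.8 in the R2 libraries. Averaged over the libraries of a cell type, naïve cells had 90.4 ± 2.38 (SD, n = 2). R1 had 96.8 ± 0.460 (SD, n = 2), and R2 had 80.9 ± 2.71 (SD, n = 2). All autosomal protein-coding genes with a peak had medians of 92.1 and 90.7, 96.9 and 96.3, and 84.7 and 87.2. The medians followed the length of the lists, which hold 67558 to 340558 peaks, the most in R1 and the fewest in R2. Against all genes with a peak, their median was equal in 1 naïve library, slightly higher in R1 and lower in the other naïve library and in R2.

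**Figure D2:**
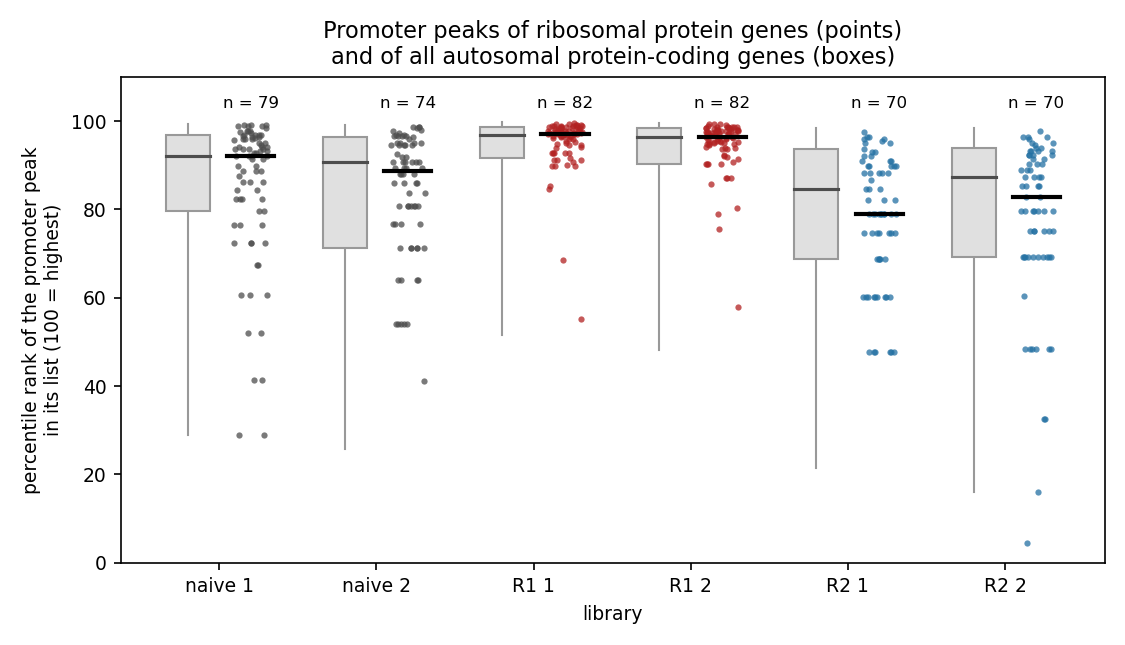
Percentile rank of the promoter peak within its list (y axis) in each library (x axis), with points for ribosomal protein genes, black lines for their medians, and boxes for all autosomal protein-coding genes with a peak (median, quartiles and whiskers from percentile 5 to 95). The 82 points of each R1 library crowd near the top, and the R2 points spread widest.

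To set list length aside, ranks were also taken among the promoter peaks of all genes in a library and averaged over the 6 libraries (the mean promoter percentile). The 61 ribosomal protein genes with a peak throughout had a median of 52.0 (quartiles 39.9 and 66.2), and all 10765 such promoters had 59.7 (quartiles 41.7 and 77.8). Mitochondrial ribosomal protein genes stood at 60.8 (63 of 78 genes with a peak throughout), ribosome biogenesis factors at 58.8 (38 of 44), proteasome subunits at 69.1 (27 of 32) and translation factors with TOP mRNAs at 76.0 (13 of 18). Of these 5 lists, the cytoplasmic ribosomal protein genes had the lowest median, and their difference from the other lists was not tested. Small-subunit and large-subunit single genes had medians of 53.5 and 53.1.

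The strongest promoters reached percentile ranks of 98.0 (RPLP0), 98.0 (RPL27), 97.9 (RPL36AL), 97.4 (RPL35) and 97.2 (RPL38) as means over the libraries. RPLP0 had 62 and 37 tags in the naïve, 217 and 130 in the R1 and 26 and 32 in the R2 libraries, and RPL27 had 63 and 41, 206 and 131, and 27 and 28. Both promoters ranked near the top in each cell type. The lowest mean ranks over the libraries with a peak were those of RPL32 (54.1), RPL3L (58.3), RPL35A (58.5), RPL7L1 (65.7) and RPL37A (69.9). Libraries without a peak do not enter these means, which can thus place a gene with missing peaks too high. The value of RPL32 rests on 1 library. RPL21 and RPL29, which lack a peak in some libraries, had 51 and 34 and 52 and 48 tags in R1. RPL37A had 100 and 70 there. RPL3L, a paralog used in striated muscle, had 14 and 12 tags in the naïve, 67 and 42 in the R1 and 11 and 8 in the R2 libraries, beside lowest called pileups of 9 and 7, 18 and 14, and 6 and 6. Its summit lay 15 and 39 bp downstream of the start in naïve library 1 and R2 library 1. In naïve library 2, both R1 libraries and R2 library 2 it lay 693 to 760 bp downstream, so that these tags come from different sites.

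Among the genes with well-known roles, the stalk was uneven. RPLP2 had mean promoter percentile 69.2 and RPLP1 41.3, against 85.5 for RPLP0. RPL5 and RPL11, the partners of 5S rRNA, had 65.7 and 54.5, RPS19 had 66.2 and RPSA 38.1. The paralogs RPL22 and RPL22L1 stood at 37.8 and 69.1, so that the paralog was the more open of the pair. RPL22 had 19 and 7 tags in the R2 libraries, a wide spread. FAU, which the symbol rule leaves out, had 72.5, and RACK1 had 21.9 with no peak in R2 library 1.

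Peaks at ribosomal protein genes were narrower than those of all genes and sat further upstream of the start. The median width was 520 and 507 bp in naïve cells, 968 and 910 bp in R1 and 378 and 327 bp in R2, beside 688 and 598, 1372 and 1247, and 469 and 478 bp for all genes. In R1 the median height was nearly that of all genes (129.5 and 84.5 tags against 125 and 83), so that these peaks were narrower at a like height. The median summit lay 90 to 101 bp upstream of the start over the 6 libraries, and 51 to 69 bp upstream for all genes with a peak. Of the 61 genes with a peak throughout, 58 (95.1%) had their median summit upstream of the start, as had 77.0% of all such promoters. In some genes the summit lay far from the start, so that a value is not always that of the start itself. RPS19 had summits between -660 and -537 bp in every library. RPL26L1 had them at -45 and -77 bp in naïve library 1 and R1, but between -661 and -625 bp in naïve library 2 and R2. In R2 library 1 the summit for RPL7A lay at -1155 bp, outside the window. The width and the summit position both stood on the same side of all genes in each of the 6 libraries, as the plot of peak shape shows. These traits were not particular to the ribosomal protein genes. Mitochondrial ribosomal protein genes had median widths of 951 and 887 bp in R1, and translation factors with TOP mRNAs had median summits 136 to 181 bp upstream. GC content within 250 bp of the start was lower, with a median of 61.0% for the 84 genes, 64.7% for all genes and 68.7% for all promoters with a peak throughout. The part of GC content in the height and width was not tested.

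**Figure D3:**
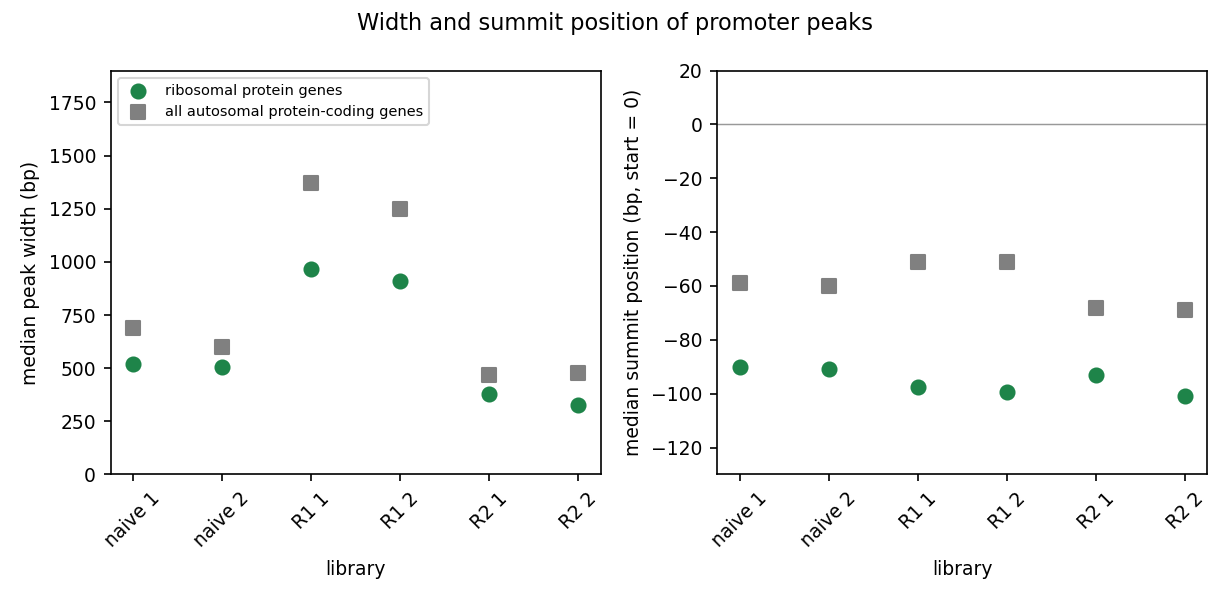
Median width of the promoter peak in bp (left) and median position of its summit in bp relative to the start, negative being upstream (right), in each library (x axes), for ribosomal protein genes (green circles) and all autosomal protein-coding genes with a peak (grey squares). The green circles lie below the grey squares in all 6 libraries of both panels.

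To compare resistant with naïve cells, the tag pileups of promoters with a peak in all 6 libraries were quantile-normalized on the log2 scale. This gives each library the same distribution of values. It does not undo effects of depth, which went with cell type, on peak calls, peak width or counting error. The normalized values were tested with limma over all 10765 promoters (Benjamini-Hochberg adjusted p under 0.05). The 61 ribosomal protein promoters could enter, and the 23 others could not. Across the 61 genes, normalized levels of the 2 libraries of a cell type correlated with r = 0.935 in R1, 0.793 in naïve cells and 0.450 in R2, a description in which the points share libraries and depth. The R2 values are thus the least precise: 14 tags, the value of RPL37 in R2 library 1, have a 95% Poisson interval of 7.65 to 23.5 tags, and 210 tags in R1 library 1 one of 183 to 240 tags (counting error only).

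In R1 against naïve cells, 2 of the 61 genes were called (3.28%), 1 higher and 1 lower. Of all tested promoters 8.12% were called, 485 higher and 389 lower. RPL37, a large-subunit protein, had 28 and 18 tags in the naïve, 210 and 135 in the R1 and 14 and 13 in the R2 libraries, which gave normalized log2 levels of 5.04 and 4.96, 5.73 and 5.68, and 5.04 and 4.90. Both R1 values lay above the 4 others, which overlapped. The log2 difference was 0.71 ± 0.18 (SE, limma adjusted p = 0.0365), or 1.63-fold, and the R2 difference was -0.03 ± 0.18 (SE, limma adjusted p = 0.946). Its peak in naïve library 1 lies at chr5:40835104-40835451 and covers the start at 40835222 on the minus strand. Other promoters in the same 10 Mb had a median difference of 0.32 in R1, and relative to them RPL37 was not called (difference 0.31, limma adjusted p = 0.488).

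RPL6, also of the large subunit, was the promoter called lower. It had 32 and 21 tags in the naïve, 69 and 61 in the R1 and 15 and 13 in the R2 libraries, and normalized log2 levels of 5.23 and 5.18, 4.19 and 4.51, and 5.14 and 4.90. The R1 values lay below the other 4. The difference was -0.86 ± 0.20 (SE, limma adjusted p = 0.0217), a fold of 0.552, and -0.19 ± 0.20 in R2 (SE, limma adjusted p = 0.670). The peak, at chr12:112409162-112409780 in naïve library 1, covers the canonical start at 112409605, which lies 9233 bp from the outermost start of the gene record. At that outer start RPL6 had 34 and 27 tags in the naïve, 160 and 125 in the R1 and 18 and 19 in the R2 libraries, with a difference of 0.00 in R1 (-0.00111 ± 0.192, SE, limma adjusted p = 0.998). The call thus concerns the canonical start, and the outer start, which had more tags in each library, did not show it. When any 1 naïve or R1 library was left out, neither RPL37 nor RPL6 was called.

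In R2 against naïve cells no ribosomal protein promoter was called, and 1.24% of all promoters were called (134). At an unadjusted limma p under 0.05 stood 6 of 61 (9.84%), beside 18.4% of all. Between R1 and R2 none was called either, and 1.44% of all were called (155). Here 11 of 61 (18.0%) had an unadjusted limma p under 0.05, close to the 18.8% of all. The largest differences in size were 0.86 in R1, 0.67 in R2 and 0.76 between R1 and R2, while 2.26%, 0.938% and 1.06% of all promoters differed by more than 1 on the log2 scale. Precision was limited: for RPLP0 the 95% interval of the difference ran from -0.78 to 0.05 in R1 and from -0.46 to 0.37 in R2. The fit gave each gene the same variance in all cell types, so both intervals are equally wide. They do not show the lower precision of the R2 libraries, which had far fewer tags. The R2 interval may thus be too narrow and does not bound the difference, and the SEs of other R2 differences share this limit.

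The median difference of the 61 genes was -0.11 in R1, -0.04 in R2 and -0.09 between R1 and R2, beside -0.02, -0.0025 and -0.0085 for all tested promoters. In R1, 20 of the 61 were higher than in naïve cells and in R2 27 were, both comparisons using the same naïve libraries, beside 5135 and 5351 of all 10765 promoters. After adjustment for GC content the R1 median was -0.02. The other lists gave R1 medians of -0.06 for mitochondrial ribosomal proteins (1 called higher and 5 lower), -0.04 for ribosome biogenesis (1 and 1), 0.06 for proteasome subunits (none called, 2 of 27 at an unadjusted limma p under 0.05) and -0.07 for translation factors with TOP mRNAs (1 higher). Over all tested promoters 8.12% were called in this comparison and 25.7% had an unadjusted limma p under 0.05. Of the 61 ribosomal protein promoters, 13 (21.3%) had an unadjusted limma p under 0.05.

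**Figure D4:**
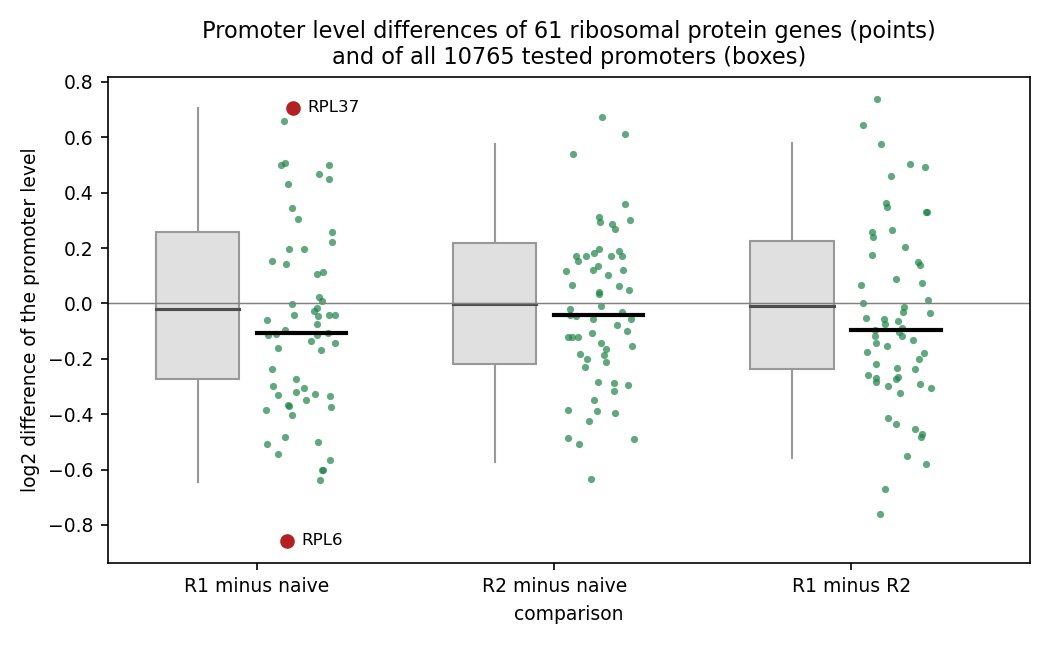
Log2 difference of the normalized promoter level (y axis) in the 3 comparisons (x axis), with green points for 61 ribosomal protein genes, red points for those called by limma, black lines for their medians, and boxes for all 10765 tested promoters (median, quartiles and whiskers from percentile 5 to 95). RPL37 and RPL6 are the called genes, and the medians lie at -0.11, -0.04 and -0.09.

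As a count that needs no variance model, the 4 R1 and R2 libraries were all above or all below the naïve pair in 12 of the 61 genes (19.7%), and in 26.0% of all tested promoters. Of all tested promoters, 1345 were higher and 1455 lower in the resistant libraries in this way. RPS21 and RPS27L were the ribosomal protein genes that were higher. The 10 lower ribosomal protein genes included RPL39L, RPL8, RPL12, RPL6, RPL27, RPL36, RPS28 and RPL28. The R1 peaks at RPL8 were 9072 and 8264 bp wide with summits 5026 and 5027 bp from the start, so that its R1 values are not those of the promoter itself. Several of these genes are outside the rule for named genes and are listed because of this count. In RPS21, a small-subunit protein, normalized log2 levels were 5.45 and 5.11 in the naïve, 5.95 and 5.93 in the R1 and 5.95 and 5.97 in the R2 libraries. The differences were 0.66 ± 0.19 (SE, limma adjusted p = 0.0536) in R1 and 0.67 ± 0.19 (SE, limma adjusted p = 0.0981) in R2, neither past the threshold. In RPS27L, a paralog and p53 target, they were 0.35 ± 0.19 (SE) in R1 and 0.61 ± 0.19 (SE) in R2, also not past it.

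Differences were read against the position of each gene. Chromosome medians of all tested promoters in R1 against naïve cells ranged from -0.40 on chromosome 19 to 0.61 on chromosome 13, with 0.41 on chromosome 20 and 0.51 on chromosome 22. Of the 12 ribosomal protein genes on chromosome 19, 4 lie in its first 20 Mb, RPS15, RPL36 and RPS28 among them. Their differences ranged from -0.56 to -0.11 in R1 and from -0.64 to -0.05 in R2, with medians of -0.43 and -0.42, beside -0.63 and -0.42 for 393 other promoters of that region. The remaining 8, among them RPS16, RPS19, RPL18, RPL13A, RPL28 and RPS9, had medians of -0.18 in R1 and -0.09 in R2, beside -0.20 and -0.07 for 398 others. In each of these 4 pairs of medians the ribosomal protein genes had the sign of their neighbours.

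RPL36 had normalized log2 levels of 5.80 and 5.74 in the naïve, 5.20 and 5.21 in the R1 and 4.93 and 5.63 in the R2 libraries. Its 4 resistant values lay below both naïve values, R2 with a wide spread, and the R1 difference was -0.56 ± 0.23 (SE, limma adjusted p = 0.139). RPL28, beyond the first 20 Mb, had 5.59 and 5.49, 4.84 and 5.04, and 5.38 and 5.37, with an R1 difference of -0.60 ± 0.18 (SE, limma adjusted p = 0.0644). Its peak in R1 library 2 was 4142 bp wide with the summit at -2076 bp from the start, outside the window, so that this value is not the promoter's own height. RPS28 had 5.72 and 5.49, 5.30 and 5.17, and 5.04 and 4.90, and its R2 difference was -0.64 ± 0.19 (SE, limma adjusted p = 0.107).

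On chromosome 20, RPS21 stood at 0.66 in R1 and 0.67 in R2, beside medians of 0.41 and 0.35 for 392 other promoters. On chromosome 22, RPL3 and RPS19BP1 stood at 0.51 and 0.47 in R1 and at 0.27 and 0.29 in R2, beside 0.51 and 0.21 for 240 others. RPL3, of the large subunit, had normalized log2 levels of 4.34 and 4.80 in the naïve, 5.13 and 5.03 in the R1 and 4.68 and 5.00 in the R2 libraries, the R2 values overlapping the naïve ones. Relative to the chromosome median RPS19BP1 had an R1 difference of -0.04, and relative to its 10 Mb one of -0.03. RPL21, the gene on chromosome 13, could not be tested, and 129 other promoters there had medians of 0.61 in R1 and 0.56 in R2.

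Over the 60 genes with at least 10 other tested promoters in their 10 Mb, the difference of the gene and the median of these neighbours correlated with r = 0.697 (Spearman 0.711) in R1 against naïve cells, 0.485 (0.366) in R2 against naïve cells and 0.407 (0.376) between R1 and R2. The sign was shared by 51, 40 and 43 of the 60 genes. These are descriptions across genes, which share libraries, depth and, in part, the same 10 Mb. The median of a gene minus its neighbours was -0.05, -0.03 and -0.00870. Relative to its chromosome RPL6 remained called (-0.86, limma adjusted p = 0.0363), and relative to its 10 Mb it stood at -0.64 (limma adjusted p = 0.161). With levels centred on the 10 Mb medians, no ribosomal protein promoter was called in R1 (limma, with 108 of 10580 promoters called), in R2 (9 called) or between them (67 called). Without this centring 874, 134 and 155 promoters were called. DNA copy number was not analysed here.

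**Figure D5:**
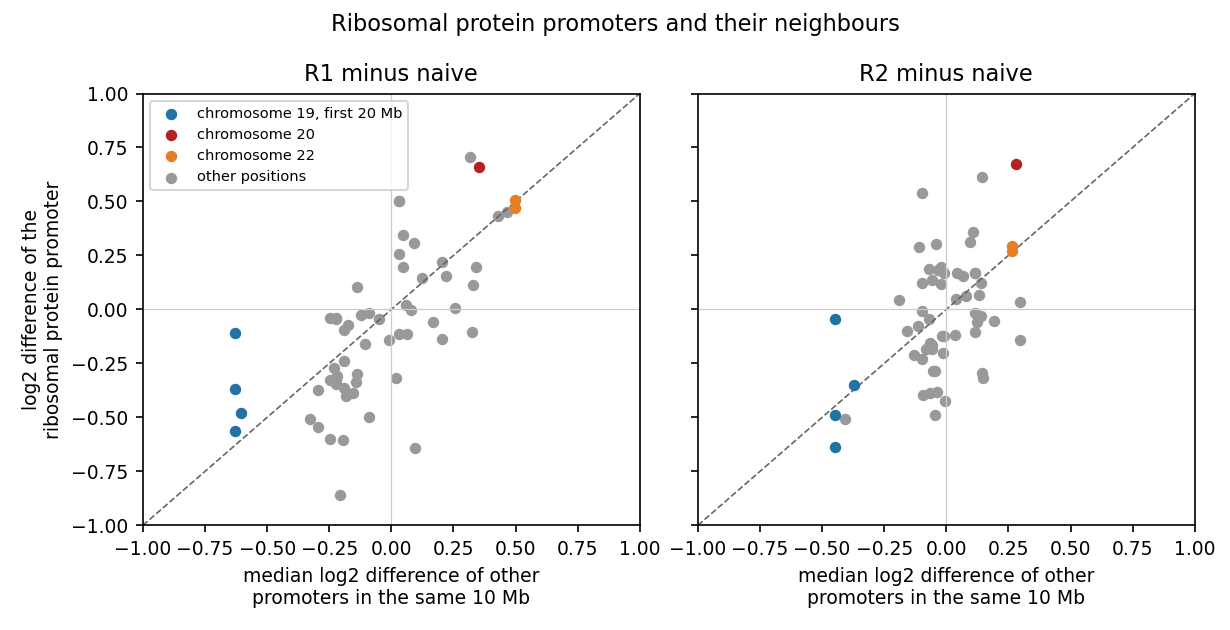
Log2 difference of each ribosomal protein promoter (y axis) against the median log2 difference of other tested promoters in the same 10 Mb (x axis), for R1 (left) and R2 (right) minus naïve, with a dashed line of equal values. Points of the first 20 Mb of chromosome 19 (blue) lie at the lower left, and those of chromosomes 20 (red) and 22 (orange) at the upper right.

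The labelled cell type was checked on marker lists. Of 8 adrenergic and 9 mesenchymal neuroblastoma genes, 6 each had a promoter peak in all 6 libraries. Of 8 blood and endothelial genes none had, and PTPRC, CD3E, LYZ and TEK had no peak in any. Most genes of both neuroblastoma lists were thus open. In R1 against naïve cells the 6 mesenchymal genes had a median difference of -0.56, with 3 called lower and 1 higher by limma, and of the 6 adrenergic genes none was called, 1 having an unadjusted p under 0.05. In R2, 1 adrenergic gene was called higher. The part of these shifts in the ribosomal protein values was not tested.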

How the data were processed

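ATAC-seq peak lists of 6 libraries were used. Per the study's methods, the authors aligned reads with BWA, marked duplicates with Picard, filtered with samtools and called peaks in each library with MACS2. The submitters' processing notes name BWA 0.7.12-r1039, Picard 1.65, SAMtools 1.3.1, MACS2 2.2.7.1 and bedtools 2.25.0. The methods name hg19, the notes also hg38, and all peaks ended within hg38 chromosome lengths, so hg38 with GENCODE release 44 was used.

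The deposited values of a peak are the fold enrichment over background, a ratio, and the −log10 of its p-value and q-value, as the authors' peak caller gave them. Each fold is a tag pileup plus 1 over the library's background rate plus 1. Pileups recovered this way were whole numbers within 0.00032 of a tag. The ranks used are ranks of the deposited −log10 p.

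Promoters were 1000 bp either side of the Ensembl canonical start. Log2 pileups of promoters with a peak in all 6 lists were quantile-normalized and fitted in limma 3.58.1 over 3 groups, with Benjamini-Hochberg adjustment. The peak assignment, the pileup recovery and the fit were tested on simulated data. With 2 libraries per group an exact permutation test of a single value cannot go below p = 0.333, so none was used. Named genes were the 5 highest and 5 lowest by mean rank, those lacking a peak, those called, those on chromosomes 13, 19, 20 and 22, and 10 well-known genes. Values of some of these genes are not reported here. The members and lists were chosen with earlier results of these data known. Alternatives were other starts and distances, a −log10 q of at least 5, other normalizations, no filter, a replicate block, centring by chromosome or 10 Mb, GC adjustment, single-gene ribosomal proteins only, and leaving out each library. A variance trend was chosen after seeing the data. Scripts ran in R 4.3.3 and Python 3.11.15 with SciPy 1.17.1, pandas 2.3.3, matplotlib 3.10.9 and NumPy 2.4.6.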

Additional observations from a re-analysis of the deposited data

Results flagged for a closer look

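RPS20 and RPS13, both of the small subunit, were flagged because both R1 libraries lay above both naïve libraries and both R2 libraries lay below them, in normalized log2 levels. RPS20 had 5.19 and 5.04 in the naïve, 5.64 and 5.44 in the R1 and 4.93 and 5.00 in the R2 libraries. The difference between R1 and R2 was 0.57 ± 0.19 (SE, limma adjusted p = 0.128). RPS13 had 5.77 and 5.74 in the naïve, 6.004 and 5.95 in the R1 and 5.66 and 5.00 in the R2 libraries, with a difference of 0.64 ± 0.22 (SE, limma adjusted p = 0.151). Neither passed the threshold, and 453 of all tested promoters (4.21%) had R1 and R2 on opposite sides of naïve cells in the same way. Both genes are outside the rule for named genes and were chosen after their values were seen.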

How the results depend on the processing

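The count of genes with a peak in all 6 libraries and the count with a pyrimidine tract stayed within 1.5 times of the reported value under each alternative. The medians of percentile rank, given for naïve cells, R1 and R2, were 85.4, 96.1 and 73.7 with a −log10 q of at least 5, and 47.5, 51.4 and 40.4 among promoter peaks only. With any transcript start the R2 median was 83.7. In R1 against naïve cells the count of called genes was 1 with the gene record start, 5 with any transcript start, 4 within 2000 bp, 18 with the logit of the percentile rank, 0 without the filter on missing peaks, 1 relative to the chromosome, 0 relative to the 10 Mb and 1 after GC adjustment. Of all promoters, 802 of 10242, 1074 of 11719, 1002 of 11192, 4860 of 10765, 668 of 16616, 312 of 10765, 108 of 10580 and 846 of 10765 were called in the same settings. Leaving out 1 library gave 0 to 5, with 0 for each naïve or R1 library (73 to 159 of all promoters) and 5 for each R2 library (1345 of 11503 and 1422 of 11305). The median difference was -0.049 with any start, -0.065 within 2000 bp, 1.59 on the logit scale, -0.032 relative to the chromosome, -0.057 relative to the 10 Mb, -0.020 after GC adjustment, and -0.16 to -0.074 without 1 library. In R2 against naïve cells 3 genes were called on the logit scale, with a median of -1.27, and 1 without the filter (1187 and 351 of all). Without 1 library the median ran from -0.083 to 0.00092. Between R1 and R2, 1 was called with any start, 58 on the logit scale with a median of 2.83, 1 without the filter and 1 after GC adjustment (265, 9776, 184 and 117 of all). That median was -0.038 relative to the chromosome, -0.0023 relative to the 10 Mb and -0.0084 after GC adjustment. The logit scale carries the length of each list by construction, since the medians of all promoters on it were 1.83, -1.17 and 3.02. For the other settings the cause was not tested. The count of genes with resistant libraries on one side was 12 to 28 without 1 library, the higher values being 27 and 28 without a naïve library and 23 and 20 without an R2 library. All promoters moved likewise, with 5338 of 10833, 5363 of 10982, 4217 of 11503 and 4173 of 11305.

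In R1 against naïve cells, RPL6 turned to 0.10, RPL28 to 0.38 and RPL36 to 0.19 on the logit scale. Relative to the 10 Mb RPL36 turned to 0.080 and RPS19BP1 to -0.029, and RPS19BP1 to -0.040 relative to the chromosome. RPL37 kept its direction throughout, and its adjusted p over the alternatives ran from 0.007 to 0.488. RPS21 in R1 passed the threshold under 7 alternatives.

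A replicate block left 2 called in R1 against naïve cells (985 of all promoters against 874) and 0 in the other comparisons, and it changed no other call on these genes. The numbers did not pair the libraries: the deviations of same-numbered libraries correlated with 0.05, -0.02 and 0.00388. A library left out leaves 1 in its group, which is then assumed to vary like the others.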

Other observations

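The 4 ribosomal protein genes of chromosome X, which the symbol rule leaves out, had a peak in both R1 libraries, the deepest. RPS4X had 13 and 10 tags in the naïve and 77 and 49 in the R1 libraries, with no peak in R2. RPL36A had 28 tags in naïve library 1, 84 and 62 in R1 and 9 and 11 in R2. RPL39 had 13 tags in naïve library 1, 86 and 57 in R1 and 10 in each R2 library, and RPL10 had 25 and 15, 113 and 82, and 14 and 19.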
